A study of Drosophila melanogaster with 2 samples.

Results

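Peaks of the CG3847 protein at the starts of non-coding RNA genes were 284 of the 6148 optimal peaks on the major chromosomes of Drosophila melanogaster, or 4.62%. They were 7.86% of the 3611 peaks that lie within 500 bp of any annotated transcription start site (TSS). A peak was a member when its summit, the position of its highest signal, lay within 500 bp of a TSS of a gene annotated as ncRNA, tRNA, snoRNA, snRNA, miRNA hairpin or pseudogene. Of the 284 peaks, 130 (45.8%) had no protein-coding TSS within 500 bp and are called non-coding-only peaks below. The other 154 peaks (54.2%) also lay within 500 bp of a protein-coding TSS and are called shared peaks. The nearest protein-coding TSS was closer to the summit than the non-coding one in 111 of the 154 shared peaks, so for these the name "non-coding start" gives the rule and not the nearest gene.

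The data are chromatin immunoprecipitation followed by sequencing (ChIP-seq) from whole embryos collected 0 to 24 h after egg laying, with 1 group of 2 biological replicates. The transgenic flies expressed CG3847 as a fusion with eGFP, a green fluorescent protein, and sonicated chromatin of 200 to 800 bp was precipitated with an antibody against GFP. Whole embryos of this age range mix all embryonic stages and cell types, and the promoter that drives the fusion is not given in the labels. The labels point to a control experiment that was not used here, and the depth of the libraries is unknown, so signal from the fusion protein could not be separated from other enrichment.

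Non-coding genes reach their products by different routes. Long non-coding RNAs (lncRNAs) and antisense RNAs (asRNAs) are transcribed by RNA polymerase II, as are most small nuclear RNAs (snRNAs), which remove introns from pre-mRNA, while the U6 and 7SK snRNAs and the transfer RNAs (tRNAs) are made by RNA polymerase III. Most small nucleolar RNAs (snoRNAs), which guide the modification of ribosomal RNA, are cut from introns of host genes, and microRNA (miRNA) hairpins are cut from longer primary transcripts. The annotated start of a snoRNA or a hairpin is therefore usually the 5′ end of a processed RNA and not the place where transcription begins.

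The snRNA starts are shown first, because their genes had the highest share with a peak among the non-coding classes and because their promoters share an element. Each line runs from 100 bases before to 20 bases after the annotated TSS on the strand of the gene, in the RefSeq sequence of Release 6 (dm6), and capitals mark the letters AATTCNCAA.
snRNA:U1:95Ca (chr3R:23859610-23859730, minus strand): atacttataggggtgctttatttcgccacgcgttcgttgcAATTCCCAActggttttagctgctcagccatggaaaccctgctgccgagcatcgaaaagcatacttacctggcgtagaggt
snRNA:U6:96Ac (chr3R:24557115-24557235, plus strand): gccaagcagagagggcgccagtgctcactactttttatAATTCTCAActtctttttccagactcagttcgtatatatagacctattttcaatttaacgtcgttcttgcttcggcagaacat
snRNA:7SKa (chr3R:7474976-7475096, minus strand): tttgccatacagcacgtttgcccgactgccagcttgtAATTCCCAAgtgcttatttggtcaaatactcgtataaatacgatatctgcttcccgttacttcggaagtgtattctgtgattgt
snRNA:U5:63BC (chr3L:3090701-3090821, plus strand): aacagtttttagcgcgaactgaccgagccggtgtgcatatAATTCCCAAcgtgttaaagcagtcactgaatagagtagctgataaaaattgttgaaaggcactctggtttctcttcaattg
snRNA:U4:39B (chr2L:21215158-21215278, minus strand): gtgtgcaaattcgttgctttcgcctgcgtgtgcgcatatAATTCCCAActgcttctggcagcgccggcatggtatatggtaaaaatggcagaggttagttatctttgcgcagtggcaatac
snRNA:U2:34ABb (chr2L:13215739-13215859, plus strand): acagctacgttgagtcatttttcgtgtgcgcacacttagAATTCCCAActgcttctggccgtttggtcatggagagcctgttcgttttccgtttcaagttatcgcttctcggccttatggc
These letters began 60 to 63 bases before the TSS in all 6 genes. They resemble the proximal sequence element that fly snRNA promoters are known for, and were picked out after the sequences were seen. On either strand of this 121-base window they occurred in 7 of 7 snRNA genes with a peak, in 20 of 25 snRNA genes without a peak and in 216 of all 17796 genes (1.21%). The element was thus nearly as common in snRNA genes without a peak, and among the other non-coding genes with a peak 3 of 269 held it.

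Of the 5 strongest non-coding-only summits, 4 are shown next, without the second strongest, at lncRNA:CR44339. Each line holds 121 bases centred on the summit, with capitals for any of the 13 motifs searched below, on either strand.
lncRNA:CR44619 (chrX:12751329-12751449, plus strand): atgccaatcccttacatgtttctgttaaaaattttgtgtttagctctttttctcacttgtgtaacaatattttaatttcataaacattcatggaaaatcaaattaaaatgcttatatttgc
lncRNA:CR31044 (chr3R:29214393-29214513, plus strand): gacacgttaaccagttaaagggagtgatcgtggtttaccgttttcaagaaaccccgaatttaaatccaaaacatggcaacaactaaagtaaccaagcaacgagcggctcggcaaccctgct
lncRNA:CR44619, second summit (chrX:12752296-12752416, plus strand): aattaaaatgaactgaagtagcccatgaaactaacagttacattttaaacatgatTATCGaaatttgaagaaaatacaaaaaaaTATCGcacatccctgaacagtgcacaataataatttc
lncRNA:CR46036 (chr3R:17700520-17700640, plus strand): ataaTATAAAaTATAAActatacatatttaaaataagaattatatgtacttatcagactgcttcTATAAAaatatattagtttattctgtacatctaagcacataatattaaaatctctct
The first 2 windows hold none of the 13 motifs in these 121 bases, but both hold the TATA box letters TATAAA in the longer windows searched below. The second summit of CR44619 holds the BEAF-32 core CGATA at 2 places, printed here as its reverse complement, and the window at CR46036 holds TATAAA. Of the 154 windows of shared peaks, 23 (14.9%) hold the DRE, the element TATCGATA bound by the promoter factors DREF and BEAF-32. From these 23, 3 are shown as 61 bases around the DRE, in capitals, with the nearest protein-coding gene. All 3 are at asRNA genes, and stronger shared peaks with the DRE, such as that at lncRNA:CR44209 (652), are not shown.
asRNA:CR45865 with CG4101 (chr3L:16612416-16612476, plus strand): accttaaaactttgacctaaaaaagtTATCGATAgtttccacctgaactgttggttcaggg
asRNA:CR45895 with l(3)73Ah (chr3L:16588235-16588295, plus strand): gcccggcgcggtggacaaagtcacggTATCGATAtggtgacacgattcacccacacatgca
asRNA:CR45648 with Irp-1A (chr3R:22724602-22724662, plus strand): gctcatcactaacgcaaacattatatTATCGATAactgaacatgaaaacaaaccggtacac
None of the 130 non-coding-only windows held these letters.

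The signal of a peak is the peak caller's own value, on a scale that is not given, so it is used here to rank peaks within the set. Non-coding-only peaks ran from 2.97 to 2004, with a median of 127, which lies at percentile 47.5 among all 6148 peaks. The median was 139 in shared peaks (percentile 52.8), 155 in the 3327 peaks at protein-coding starts only (percentile 58.9) and 109 in the 2537 peaks without a TSS within 500 bp (percentile 38.3). The middle 50% of the non-coding-only peaks spanned 81.9 to 203, which contains the medians of all the other classes. At a signal of 500 or more there were 11 non-coding-only and 11 shared peaks, among 345 in all.

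Long non-coding RNA genes held most of the non-coding-only peaks. The nearest non-coding gene was an ncRNA gene in 110 of 130, and 94 of these carried an lncRNA name and 14 an asRNA name. The strongest lay at lncRNA:CR44619 (FBgn0265830) on the X chromosome, with its summit 478 bp upstream of the TSS at X:12751867 and the nearest protein-coding TSS, that of CG4004, 5072 bp away. Its pooled signal was 2004, and the signal was 1060 in replicate 1 and 933 in replicate 2. A second peak at the same gene, 489 bp downstream of the TSS, had 635 in replicate 1 and 486 in replicate 2. The gene thus had a peak on each side of its start, both in each replicate's own thresholded set.

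The second strongest peak lay 158 bp upstream of lncRNA:CR44339, with 749 in replicate 1 and 701 in replicate 2. This gene starts outside protein-coding genes, and its nearest protein-coding TSS, 4215 bp from the summit, is that of Psc, a Polycomb group protein of the PRC1 complex. At lncRNA:CR46036, which lies within osa on the opposite strand, replicate 1 had 555 and replicate 2 had 439. Osa is a subunit of the BAP chromatin remodelling complex. At asRNA:CR44429 the replicates had 470 and 381, and the summit was 533 bp upstream of the TSS of gce, a receptor of juvenile hormone, just past the limit that would have made it a shared peak.

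Further down, lncRNA:CR31840 had a summit 10 bp downstream of its TSS, with 303 in replicate 1 and 295 in replicate 2. The neighbours lncRNA:CR44868 and lncRNA:CR44867, both inside beat-Ib on the opposite strand, had pooled signals of 585 and 584 at summits 401 and 417 bp upstream. Uhg4, a host gene that holds 7 snoRNAs, had 350 in replicate 1 and 225 in replicate 2 at a summit 78 bp upstream of its TSS. The rest of the 15 strongest at ncRNA genes were CR44676 (512), CR45352 (479), CR42657 (477), CR45541 (466) and CR45997 (464), in pooled signal. CR42657 starts near nej, the gene of the CBP acetyltransferase, and CR45997 lies within mbl, the gene of the splicing factor Muscleblind. All 15 peaks were in the conservative set and also in the thresholded sets of both replicates.

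Some ncRNA genes hold miRNA hairpins and are called host genes here, and 1 of the 15 strongest peaks, at CR31044, lay at the start of one. Of 37 ncRNA genes that hold a miRNA hairpin on their own strand, 9 had a peak within 500 bp of a TSS (24.3%, exact 95% interval 11.8 to 41.2). The share was 25.9% over all genes and 8.24% (7.20 to 9.39) over the other 2511 ncRNA genes. Among genes without a protein-coding TSS within 1000 bp it was 8 of 32 hosts (25.0%, 11.5 to 43.4) and 83 of 1748 others (4.75%). In the thresholded set of replicate 2 alone 4 of the 37 hosts had a peak (10.8%) and in that of replicate 1 alone 6 (16.2%). These sets are smaller than the optimal set, with 4339 and 4445 peaks. The share of all ncRNA genes was 6.04% in each of them, against 8.48% in the optimal set. With a TSS window of 200 bp 3 of the 37 hosts had a peak (8.11%), beside 3.77% of all ncRNA genes. In the conservative set 7 of the 37 hosts had one (18.9%), beside 7.77% of all ncRNA genes. The hosts were looked at as a group after the peak at CR31044 had been seen, and their difference from other ncRNA genes was not tested.

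All 9 host peaks were non-coding-only and lay upstream of the nearest annotated TSS of the host, by 85 to 491 bp. For CR43626 and CR43650 that TSS is inside the gene, at 3L:3250594 and 2R:16830689. These genes begin at 3L:3249340 and 2R:16829095, so their summits lie within the host. Both peaks were thus counted only through a TSS inside the gene. The hosts were not recounted with 1 TSS per gene. The strongest host peak was at lncRNA:CR31044 (FBgn0051044, 3R:29214562-29219667), 109 bp upstream of the TSS, with 702 in replicate 1 and 535 in replicate 2. This gene carries mir-279, known for restricting the formation of CO2-sensing neurons, and mir-996. At lncRNA:CR43626, the host of mir-282, the replicates had 188 and 176. At lncRNA:CR43650, the host of the growth regulator mir-8, they had 157 and 153, and at lncRNA:CR43651, the host of mir-14, which limits cell death, 90.1 and 108.

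Other host peaks differed more between the replicates. At lncRNA:CR43334, the host of bantam (mir-ban), which promotes growth and blocks cell death, replicate 1 had 99.6 and replicate 2 had 52.6. At lncRNA:CR46006, the host of mir-276a, replicate 1 had 13.8 and replicate 2 had 49.1. At asRNA:CR46194, the host of mir-281-1 and mir-281-2, the replicates had 54.4 and 32.6, and at lncRNA:CR43857, the host of mir-275, they had 39.5 and 25.1. At lncRNA:CR45345, the host of mir-375, the member peak had a pooled signal of 4.56 and overlapped a peak of 159 whose summit was 211 bp away, so the replicate values of 88.5 and 74.1 belong to that larger peak. Of the 9 host peaks, 7 overlapped the conservative set and 5 the sets of both replicates. The hairpins themselves were mostly not near a peak, as 2 of the 11 hairpins in these hosts had a summit within 500 bp of their own 5′ end.

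**Figure D1:**
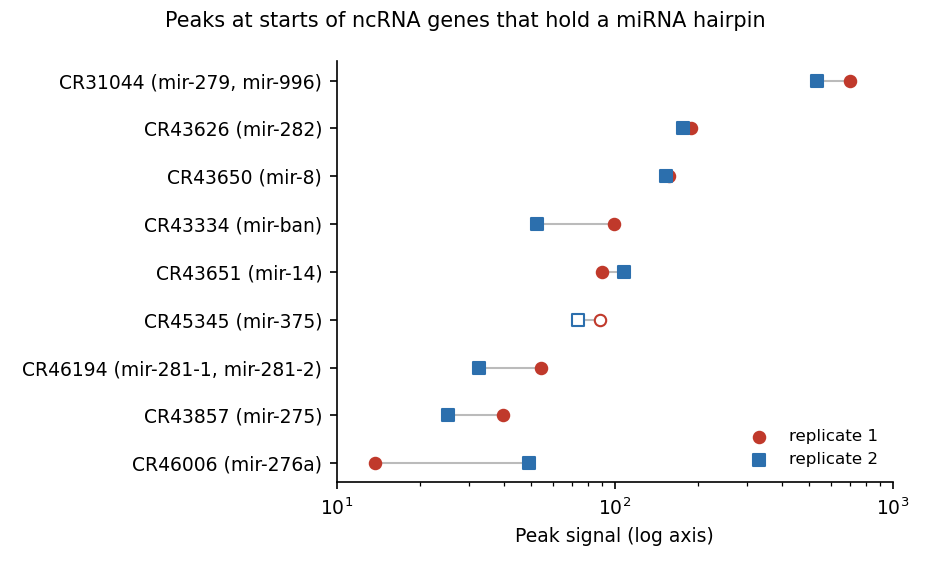
Peak signal in replicate 1 (circles) and replicate 2 (squares) at the starts of the 9 ncRNA genes that hold a miRNA hairpin and have a peak, on a log axis, with the hairpins in parentheses. CR31044 stood highest in both replicates at 702 and 535, and open symbols mark CR45345, whose replicate values belong to a larger overlapping peak.

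The snRNA genes had a peak at 7 of 32 genes (21.9%, 9.28 to 40.0), beside 25.9% of all genes and 31.0% of protein-coding genes. In the thresholded set of replicate 2 alone 4 of the 32 did (12.5%), and in that of replicate 1 alone 6 (18.8%). All 7 snRNA peaks were non-coding-only, and 6 of 7 summits lay within 100 bp of the TSS, against 24 of 110 at ncRNA genes. Most lay downstream, over the short transcribed gene, and not upstream. At U1:95Ca, a gene of the RNA that recognises the 5′ splice site, the summit was 87 bp downstream of the TSS, and replicate 1 had 103 and replicate 2 had 80.2. At U6:96Ac, whose RNA takes part in splicing catalysis, the summit was 76 bp upstream and the replicates had 99.0 and 58.3, and U6:96Ab lay within 500 bp of the same summit.

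At 7SKa, whose RNA holds the elongation factor P-TEFb inactive, the summit was 239 bp downstream with 101.4 in replicate 1 and 54.9 in replicate 2. A second peak at 7SKa, with a pooled signal of 21.9, overlapped the same peak in each replicate. At U5:63BC the replicates had 77.5 and 51.4, at U4:39B they had 74.7 and 46.5, and at U2:34ABb they had 42.0 and 42.5. Replicate 1 was higher in 6 of the 7 snRNA peaks, beside 77.7% of all non-coding-only peaks. Of the 7, 3 overlapped a peak of both replicate sets, beside 49.2% of non-coding-only peaks and 55.1% of all peaks. The 2 peaks at 7SKa are each counted here although they overlap the same replicate peaks. Members of an snRNA family are near-identical copies and the handling of reads that map to several copies is not given, so which copy in a family bears a peak is uncertain. Over the families, 1 of 5 U1 genes, 1 of 6 U2 genes, 1 of 3 U4 genes, 1 of 7 U5 genes, 2 of 3 U6 genes and 1 of 2 7SK genes had one.

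At tRNA starts 9 of the 11 peaks were shared. The strongest, between tRNA:Tyr-GTA-1-8 and CG8036, had 266 in replicate 1 and 240 in replicate 2. The next, at tRNA:Phe-GAA-1-2, lay 248 bp downstream of the tRNA start but 57 bp upstream of RpL17, a gene of the large ribosomal subunit, and had 203 and 232. Trp-CCA-2-2, His-GTG-1-3 and Val-CAC-2-5 followed with pooled signals of 255, 202 and 183, and the protein-coding TSS was nearer than the tRNA in 6 of the 9. The 9 shared tRNA peaks ran from 66.4 to 515 in pooled signal, and the 2 without a protein-coding start, at 124 and 66.9, lay within that range. At Gln-TTG-2-1 replicate 1 had 88.5 and replicate 2 had 33.7, and the peak at Cys-GCA-1-3, with 37.1 and 27.9, was in neither replicate set and not in the conservative set. Copies of a tRNA gene may share reads, so here too it is uncertain which copy bears a peak.

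At snoRNA starts 9 shared peaks were found, and in 8 of them the snoRNA lies inside a ribosomal protein gene on the same strand. The strongest was at the RpS29 start, 376 bp upstream of snoRNA:Psi18S-1275 but 20 bp upstream of the RpS29 TSS, with 316 in replicate 1 and 342 in replicate 2. The peaks at the RpL28 and RpS12 starts, by way of Or-CD11a and Me28S-A774b, had pooled signals of 369 and 227, again nearer to the protein-coding start. The 7 shared peaks with a snoRNA as the nearest non-coding gene ran from 87.2 to 652. Of 5 non-coding-only peaks within 500 bp of a snoRNA start, 1 was the Uhg4 peak described above, whose nearest gene is Uhg4. The other 4 were at Or-ACA6 (161 and 90.0 in replicates 1 and 2), Or-CD4 (86.9 and 94.9), abba-a (65.3 and 60.2) and Psi28S-3342 (53.0 and 74.5). The nearest snoRNA start was 261 to 469 bp from these summits.

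Hairpins and pseudogenes had few peaks. Of 6 non-coding-only peaks within 500 bp of a hairpin, 1 was the low peak at CR45345, near mir-375, and the hairpin was the nearest non-coding gene in 5. These were at mir-9377 inside Tis11 (194 and 177), mir-275 (135 and 122), mir-2282 inside sty (76.6 and 62.2), mir-9378 (59.0 and 61.9) and mir-34 (55.9 and 45.0), in replicates 1 and 2. None of these 5 summits was within 100 bp of the hairpin. The miRNA mir-34 is known for a role in ageing and neurons, and its peak was in neither replicate set. The strongest shared hairpin peak, mir-303 with mir-982, had a pooled signal of 209 and lay 68 bp upstream of CG3626. At pseudogenes there were 8 shared and 2 non-coding-only peaks, the latter at CR43158 (101.4 and 112) and CR31032 (56.4 and 70.9). One further shared peak, with a pooled signal of 619 near jigr1, was a member only through the record of a mature miRNA.

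The strongest shared peak reached a pooled signal of 3062, against 2004 among non-coding-only peaks. At lncRNA:CR44463 with mRpL41, a gene of the mitochondrial ribosome, replicate 1 had 1615 and replicate 2 had 1479, and the summit lay 135 bp upstream of mRpL41 and 443 bp downstream of the lncRNA start, past the 3′ end of that short gene. At asRNA:CR45928 with eIF6, a factor of large subunit assembly, the replicates had 1085 and 867, and here the asRNA start was nearer, at 76 bp. At lncRNA:CR44120 with SLC5A11 they had 1033 and 791. At lncRNA:enrr and elav, the pan-neuronal RNA-binding protein, both TSSs were 258 bp away and the replicates had 572 and 459. The rest of the 8 strongest were CR44149 with brwl (932), CR46364 with RpS27 (847), CR43257 with Reg-5 (814) and CR44209 with Cyt-b5 (652), in pooled signal.

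In 86 of the 154 shared peaks (55.8%, 47.6 to 63.8) the 2 genes stood head to head, in 36 they ran on the same strand and in 32 they overlapped on opposite strands. Non-coding-only peaks were set apart from protein-coding genes by the rule itself. Their nearest protein-coding TSS was a median of 3687 bp away, with 17 of 130 at 500 to 1000 bp and 47 beyond 5000 bp. The non-coding TSS lay outside protein-coding genes in 86 of 130 (66.2%), inside one on the opposite strand in 29 and on the same strand in 15.

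The summits did not gather at the non-coding start as they did at protein-coding starts. In non-coding-only peaks the median distance from the summit to the TSS was 238 bp, and 31 of 130 (23.8%, 16.8 to 32.1) were within 100 bp. In shared peaks the median was 251 bp to the non-coding TSS and 90.5 bp to the protein-coding TSS, with 19.5% and 52.6% within 100 bp. Peaks at protein-coding starts only had a median of 81 bp and 58.9% (57.2 to 60.6) within 100 bp. Summits lay upstream in 78 of the 130 non-coding-only peaks (60.0%, 51.0 to 68.5) and in 81.7% of the protein-coding-only peaks. Only positions inside the 500 bp window can enter these values.

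**Figure D2:**
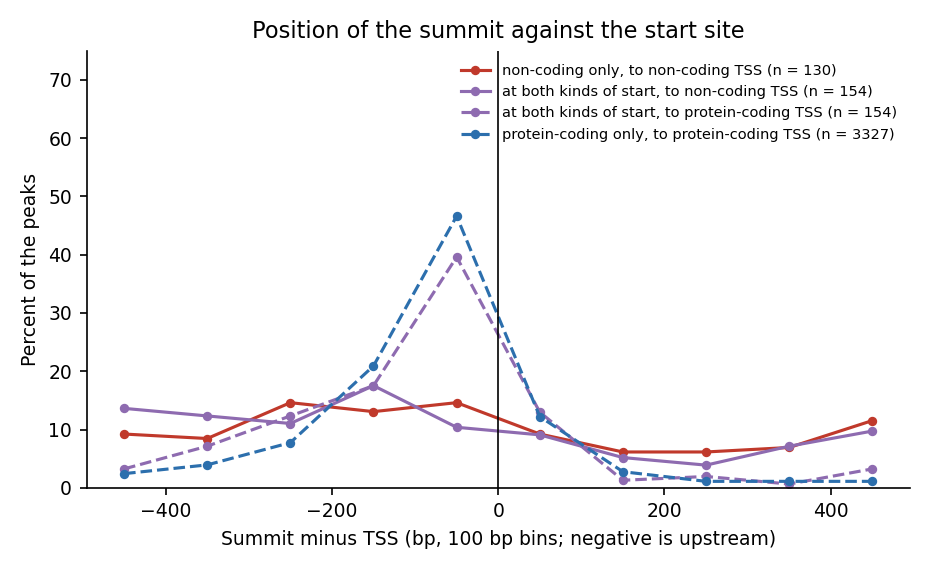
Percent of peaks by the distance of the summit from the nearest TSS in 100 bp bins (negative is upstream), for non-coding-only peaks, shared peaks measured to either start, and peaks at protein-coding starts only. The dashed lines, which measure to protein-coding starts, peak just upstream of the TSS, while the solid lines, which measure to non-coding starts, hold at most 17.5% in any bin.

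Of all 284 members, 158 overlapped a peak in the thresholded sets of both replicates (55.6%). Of the 130 non-coding-only peaks, 64 did so (49.2%, 40.4 to 58.1), and of the 154 shared peaks 94 did (61.0%, 52.9 to 68.8). The share over all optimal peaks was 55.1%, over protein-coding-only peaks 63.7% and over peaks without a TSS 43.6%. In neither replicate set were 37 non-coding-only and 20 shared peaks. In the conservative set were 111 non-coding-only peaks (85.4%) and 134 shared peaks (87.0%), beside 87.5% of all peaks. Both classes were thus near the share over all peaks.

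The replicates differed less at high than at low pooled signal. The median absolute log2 ratio between them was 0.23 in 84 members with a pooled signal of 200 or more (largest 1.07), 0.38 in 107 members from 100 to 200 and 0.67 in 91 members below 100, beside 0.32, 0.39 and 0.49 over all peaks. The signal was higher in replicate 1 in 77.7% of the 130 non-coding-only peaks and lower in 29 of them, with a median log2 ratio of replicate 1 to replicate 2 of 0.30 (SD 0.83), and in 78 of 152 shared peaks, with a median of 0.01 (SD 0.76). Over all peaks with both values 3840 of 6067 were higher in replicate 1, with a median of 0.18. The ratio was 0.04 in protein-coding-only peaks and 0.36 in peaks without a TSS. At roX2 the replicates differed most among the known genes, with 17.1 and 62.9.

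**Figure D3:**
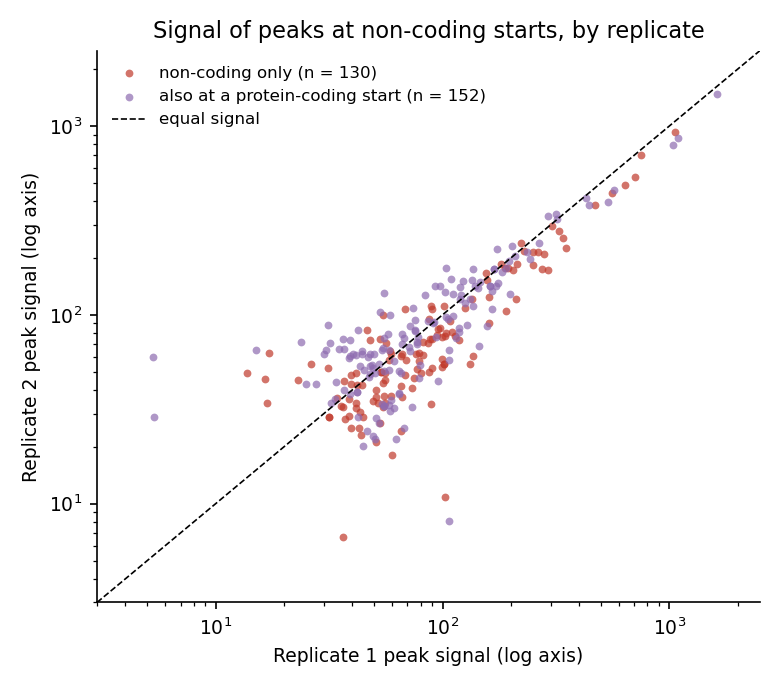
Signal in replicate 1 against replicate 2, on log axes, for the 130 non-coding-only peaks and the 152 shared peaks with a value in both, with a dashed line at equal signal. The scatter narrows towards high signal, and non-coding-only peaks were higher in replicate 1 in all but 29 of 130.

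The lowest member values stood in overlapping pairs of peaks. Of the 284 members, 42 overlapped another optimal peak (14.8%, against 10.8% of all peaks), and all 8 members with a signal under 10 did so, as did all 103 such peaks in the whole set. At lncRNA:CR44589, for example, a peak of 7.19 overlapped one of 296 whose summit was 246 bp away. The deposited width was 390 bp in 209 members (73.6%), beside 75.9% of all peaks.

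The share of genes with a peak depended on the neighbourhood. Over all non-coding genes, 276 of 3729 had a peak (7.40%, 6.58 to 8.29), beside 25.9% of all 17796 genes and 31.0% of protein-coding genes. With a protein-coding TSS within 500 bp the share was 130 of 613 (21.2%, 18.0 to 24.7), at over 500 and up to 1000 bp it was 33 of 469 (7.04%, 4.89 to 9.74), and with none within 1000 bp it was 113 of 2647 (4.27%, 3.53 to 5.11). The last share was 2.68% in the thresholded set of replicate 2 alone and 3.02% in that of replicate 1 alone. Protein-coding genes followed the same order, with 57.0% near another protein-coding TSS and 17.4% with none within 1000 bp. A ranked peak of any strength, with no threshold, lay at 61.8% of the non-coding and 78.4% of the protein-coding genes.

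By class, 216 of 2548 ncRNA genes (8.48%), 16 of 269 snoRNA genes (5.95%), 14 of 260 hairpins (5.38%), 13 of 290 tRNA genes (4.48%) and 10 of 330 pseudogenes (3.03%) had a peak. For pseudogenes it was 1.82% in replicate 1 alone. For tRNA genes the share was 8 of 32 (25.0%, 11.5 to 43.4) with a protein-coding TSS within 500 bp and 4 of 211 (1.90%, 0.519 to 4.78) with none within 1000 bp. The snRNA genes differed in that 6 of the 27 without a protein-coding TSS within 1000 bp had one (22.2%, 8.62 to 42.3). None of the 99 annotated ribosomal RNA genes had a peak, which allows a share of up to 3.66% and counts copies that may share reads. By chromosome, the share of non-coding genes with a peak ran from 6.06% on 3L to 10.6% on 2R, and no member lay on chromosome 4 or Y, which held 2 and 1 of all peaks.

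**Figure D4:**
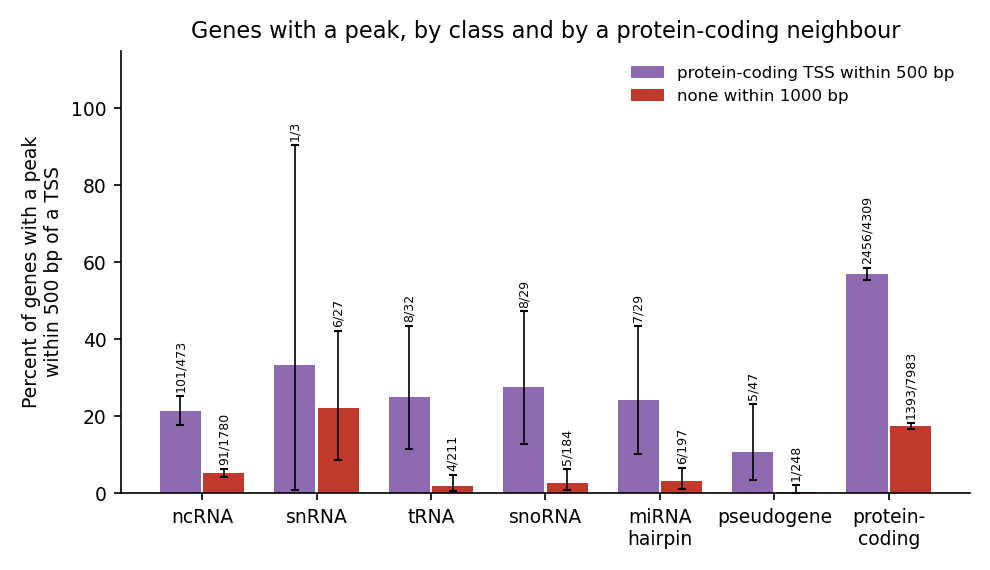
Percent of genes with a summit within 500 bp of a TSS, by gene class, for genes with a protein-coding TSS within 500 bp and for genes with none within 1000 bp. Bars start at 0, error bars are exact 95% intervals that cover counting error only, and the numbers give genes with a peak of all genes, such as 91 of 1780 for ncRNA genes with no protein-coding TSS within 1000 bp.

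The sequences under the 2 kinds of member differed in their motifs. In windows of 100 bp on either side of the summit, searched on both strands, the DRE (TATCGATA) was in 0 of 130 non-coding-only windows, which allows a share of up to 2.80%, and in 23 of 154 shared windows (14.9%, 9.71 to 21.6). It was in 10.5% of protein-coding-only windows, 0.670% of windows without a TSS and 6.33% of all peaks. The BEAF-32 core CGATA, which the DRE contains, was in 12.3% of non-coding-only (7.20 to 19.2), 46.8% of shared and 45.7% of protein-coding-only windows. It was in 20.1% of windows without a TSS, in 34.5% of all peaks and in 22.4% of windows at non-coding TSSs without a peak. Core promoter motif 1 (GGTCACAC) was in 2.31% of non-coding-only, 7.14% of shared and 10.5% of protein-coding-only windows. It was in 0.591% of windows without a TSS and in 6.16% of all peaks. In replicate 1 alone it was in 1.04% and in replicate 2 alone in 3.90% of non-coding-only windows.

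The E-box CAGCTG, like the DRE, was more frequent in shared and protein-coding-only windows than in the other classes, with smaller gaps. It was in 8.46% of non-coding-only (4.30 to 14.6), 15.6% of shared, 15.2% of protein-coding-only windows and 7.45% of windows without a TSS. It was in 11.9% of all peaks. In replicate 1 alone it was in 4.17% of the non-coding-only windows. The motif 7 core GGCAACG was in 4.62% of non-coding-only (1.71 to 9.78), 11.7% of shared (7.08 to 17.8), 6.37% of protein-coding-only windows and 2.25% of windows without a TSS. It was in 4.77% of all peaks, so the non-coding-only share was near that of all peaks. The letters CAGGTAG, bound by the early embryonic activator Zelda, went the other way, in 5 of 130 non-coding-only windows (3.85%, 1.26 to 8.75) and 0 of 154 shared windows, beside 0.960% of all peaks. The 5 include the low peak at CR45345 (4.56). In replicate 1 alone 1 of 96 non-coding-only windows held CAGGTAG, and in replicate 2 alone 0 of 77. With 50 bp on either side of the summit 0 of 130 held it, so the higher share was not kept under these settings. The CTCF-like core AGGTGGC, named after an insulator protein, was in 8.46% of non-coding-only (4.30 to 14.6) and 5.19% of shared windows. It was in 3.82% of protein-coding-only windows, 3.15% of windows without a TSS and 3.68% of all peaks. With 50 bp on either side of the summit 3.85% of the non-coding-only windows held AGGTGGC. The other classes were not counted at that shorter width. The TATA box letters TATAAA were in 34.6% of non-coding-only and 31.2% of shared windows, beside 31.0% of windows without a TSS and 30.4% of all peaks. They were in 45.5% and 44.8% of the non-coding-only windows of replicate 2 and replicate 1 alone. The RNA polymerase III B box GTTCGANTC, part of tRNA promoters, was in 0.769% of non-coding-only windows, which is 1 window and 0 in either replicate alone, and in 1.30% of shared windows, below the 3.51% at non-coding TSSs without a peak. It was in 0.602% of all peaks. No difference between these classes was tested, and a match of letters is not a site.

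Short sequences that recur in the other peaks were also counted in the members. The 8-mers were ranked on chromosomes 2L, 3L, X and 4 only, among those in at least 2% of the other peaks there. The 5 most frequent relative to ranked peaks outside every thresholded set were TATCGATA, GGTCACAC, AGTGTGAC, ATCGATAG and ACTATCGA. They include the DRE and core promoter motif 1, and the other 3 overlap these in sequence, so the count is not independent of the motif counts above. At least 1 of the 5 was in 4 of 130 non-coding-only windows (3.08%, 0.845 to 7.69) and in 40 of 154 shared windows (26.0%, 19.2 to 33.6). The 8-mers were chosen in peaks at protein-coding starts only or without a TSS, so shares in those classes are not given.

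**Figure D5:**
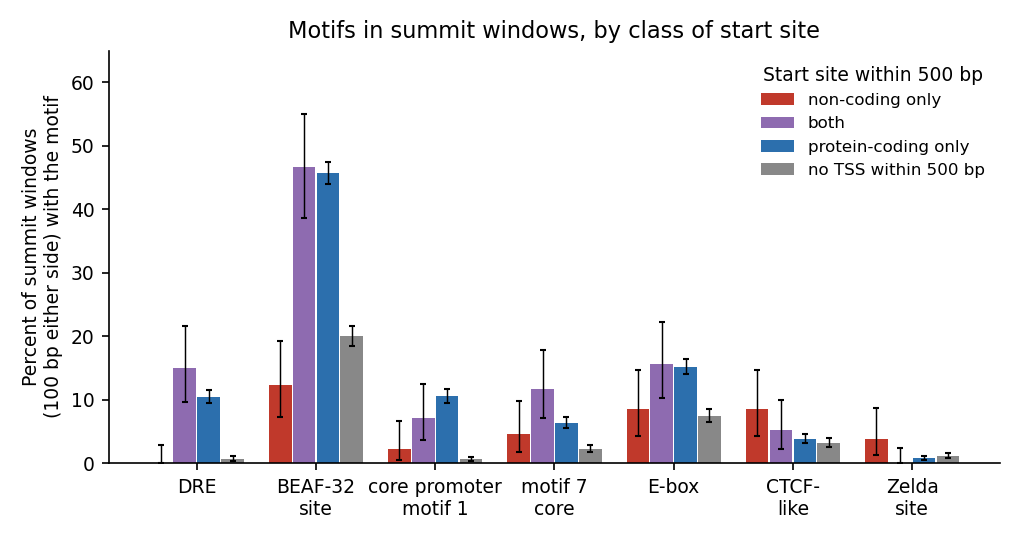
Percent of summit windows (100 bp on either side) with each motif, by the kind of start within 500 bp of the summit. Bars start at 0, error bars are exact 95% intervals covering counting error only, and the DRE was in 0 of 130 non-coding-only windows and in 14.9% of those at both kinds of start.

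Of 25 well-known non-coding genes looked up, 4 had a peak (16.0%), beside 7.40% of all non-coding genes and 25.9% of all genes. The 4 were 7SKa and mir-34, described above, and both roX genes, whose RNAs guide the dosage compensation complex to the male X chromosome. Hsromega, also on the list, had a ranked pooled peak of 311 that is not in the optimal set. At lncRNA:roX1 the summit lay 49 bp upstream of the nearest TSS, with 36.8 in replicate 1 and 44.5 in replicate 2, and at lncRNA:roX2 it lay 27 bp upstream, with 17.1 and 62.9. Both peaks were low, with pooled signals of 81.2 and 81.4 at percentiles 18.2 and 18.4. The Bithorax lncRNAs bxd and iab8 had no peak, with a highest ranked signal within 500 bp of 13.8 and 58.2. No pooled ranked peak lay at let7C, at flam, the piRNA cluster that restrains transposons, or at either 7SL RNA gene. RNase P and RNase MRP RNA had ranked values of 10.7 and 45.4 and no peak. The muscle miRNA mir-1 had 39.5, mir-7 had 43.4 and mir-184 had 19.9 at the hairpin, none in the optimal set, and mir-9a and mir-124 had no pooled ranked peak there. The listed hairpins mir-8, mir-14, mir-279, mir-276a and mir-ban had no peak within 500 bp, but their host genes had the peaks described above.

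The rule has a limit at 500 bp. Just inside it were asRNA:CR44989 at 500 bp (103), asRNA:CR43609 at 499 bp (83.3) and snoRNA:Or-CD11a at 498 bp (369), in pooled signal. Just outside were lncRNA:CR45650 at 501 bp (201.2), lncRNA:CR45681 at 504 bp (206) and lncRNA:CR44517 at 504 bp (229).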

How the data were processed

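The authors deposited peak sets on assembly dm6 made with the irreproducible discovery rate (IDR), per the file headers and names: an optimal and a conservative set over both replicates, a thresholded set per replicate, and ranked tables without a threshold. The aligner, the peak caller and the control were not given in the sources used here. As deposited by the authors, the signal column holds the value the peak caller gave, and the score column they deposited holds the scaled IDR, at least 830 in the optimal set. No file gives read depth, so depth is unknown.

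Genes came from Ensembl release 115 (annotation BDGP6.54) without transposable elements, 17796 after 481 records of mature miRNAs were left out of gene counts (they still counted for membership, and decided 1 member). Sequences came from RefSeq Release 6, whose chromosome names and lengths hold every peak. The value of a member in a replicate is the ranked peak of that replicate that overlaps it by at least 1 bp, with the nearest summit. A peak was in a set when it overlapped a peak there by at least 1 bp. Motifs and 8-mers were counted in windows of 100 bp on either side of the summit. Shares have exact Clopper-Pearson 95% intervals, which cover counting error alone. Peaks and genes are not replicates of a condition, and with 1 group no test was made. The rule and counting were checked on simulated data. Analyses used Python, numpy and scipy.

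The members and lists were chosen with earlier results of these data known. Named genes were the 15 strongest non-coding-only and 8 strongest shared peaks at ncRNA genes, up to 8 per class at tRNA, snoRNA, snRNA and hairpin starts, up to 5 non-coding-only pseudogene peaks (2 were found), 3 on each side of the 500 bp limit, and a list of known genes, and some of these are given by their range. The miRNA host genes and the snRNA element were added after values were seen. The alternatives were the conservative set, 1 replicate at a time, a limit of 200 or 1000 bp to the TSS, a single TSS per gene, the stronger 50% of the peaks, the centre of the interval as position, a stricter overlap and motif windows of 50 bp on either side.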

Additional observations from a re-analysis of the deposited data

Results flagged for a closer look

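Ranked pooled peaks at 8 non-coding starts had a score at or above the lowest of the optimal set, 830, but were not in that set, so the counts of optimal peaks do not include them. They were among 174 such peaks on the major chromosomes, and none of the 8 overlapped an optimal peak. The best-known is lncRNA:Hsromega, the heat shock RNA that assembles omega speckles, with a pooled signal of 311, 159 in each replicate, and a summit 196 bp downstream of its TSS. Higher still was the hairpin mir-4949 with 362, and asRNA:CR45908 followed with 268. The others were lncRNA:CR30055 (177), lncRNA:CR45221 (155), lncRNA:CR45279 (144), lncRNA:CR42549 (89.4) and lncRNA:CR45643 (81.8), in pooled signal. Why these peaks are not in the optimal set was not tested.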

How the results depend on the processing

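The count of members moved with the window and the signal limit by construction, from 284 to 121 with a TSS window of 200 bp, 508 with 1000 bp and 141 in the stronger 50% of the peaks. The share also at a protein-coding start was 54.2%. It became 43.0% with 200 bp, 65.2% with 1000 bp and 46.5% with 1 TSS per gene, and 53.2% to 62.4% with a replicate left out. The median percentile of non-coding-only peaks ran from 40.2 with 200 bp to 56.4 in the stronger 50%, ranked within each set. These values lie within the middle 50% of the peaks, 18.8 to 70.9. That range is wide and also holds the medians of the other classes, so staying inside it shows little. The share of upstream summits stayed within its 95% interval under all alternatives run. The share in both replicate sets rose from 49.2% to 93.3% in the stronger 50%. Genes with a peak were 7.40% of all non-coding genes, 3.14% with 200 bp, 13.2% with 1000 bp and 3.86% in the stronger 50%. The corresponding values without a protein-coding TSS within 1000 bp were 1.85%, 7.25% and 2.19%, and with one within 500 bp 9.79%, 28.9% and 11.4%. With a replicate left out these 3 shares were 5.39% to 5.44%, 2.68% to 3.02% and 14.8% to 17.3%. Non-coding-only windows with any of the 13 motifs fell from 65.4% to 35.4% with 50 bp on either side, in shorter windows. This share was not counted over all peaks, where CGATA alone was in 34.5% and TATAAA alone in 30.4% of the longer windows, so it shows no excess. Merging overlapping peaks or adding the peaks absent from the optimal set, both chosen after seeing the data, gave 264 and 292 members and kept the shared and upstream shares and the median percentile within the same limits, and the other results were not run under them. No paired analysis was possible because the series holds 1 group. The unknown depth limits what the absence of a peak shows.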
